A study of Mus musculus with 2 samples.

Results

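Sestrins and 5 other genes whose products hold back mTOR complex 1 (mTORC1) were followed in mouse embryonic stem cells with and without a DNA-damaging drug. The 8 genes were listed by name: the sestrins Sesn1, Sesn2 and Sesn3, then Ddit4, the AMPK beta subunit genes Prkab1 and Prkab2, Tsc2 and Deptor. All 8 were found among the 55414 gene identifiers of the count tables, and all 8 were among the 14871 genes called measured here, whose mean over both libraries reached 1 CPM (read counts scaled to library size). The cells were of the line R1E with a genotype given as WT, kept in serum medium with the cytokine LIF. One condition was untreated at 0 h and the other received 0.5 µM Adriamycin for 8 h. Adriamycin is doxorubicin, which poisons topoisomerase II and breaks DNA. Each condition had 1 library, with 41820999 reads in the untreated and 38561292 in the Adriamycin one. No test between conditions was possible, no library was untreated at 8 h, and drug, time and culture cannot be told apart.

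mTORC1 is a kinase complex that drives protein synthesis and growth when nutrients and growth factors are plentiful. It is switched on at the lysosome by the small GTPase Rheb and by the Rag GTPases. Several stress pathways act on it: the TSC complex turns Rheb off, AMPK phosphorylates TSC2 and raptor when energy is low, and sestrins bind GATOR2 and so restrain the Rag branch. The transcription factor p53 is known to activate several of these genes after DNA damage, which links the damage response to growth control. In embryonic stem cells, low mTOR activity is known to accompany a paused, slowly growing state.

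After Adriamycin, Sesn2 and Ddit4 were past 2-fold higher, 0 of the 8 genes were past 2-fold lower and 6 were neither. Over all measured genes 17.0% were at least 2-fold higher and 6.95% at least 2-fold lower. Sesn2, Ddit4 and Tsc2 had a mean of at least 100 CPM, where 7.02% of genes were 2-fold higher and 8.89% lower. The other 5 had a mean of 10 to 100 CPM, where 12.3% were higher and 5.19% lower. The median log2 ratio of the 8 genes was 0.17, against -0.03 over all measured genes. All log2 ratios set the Adriamycin over the untreated level. The 95% limits in parentheses after log2 ratios and their differences take each count divided by 2, the reads of a pair, and describe nothing but the error of counting.

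The DNA upstream of the start sites is shown here for the sestrin genes and Ddit4, since 2 of these genes stood well above their untreated level and the others did not. The sequences are the 250 bases before an annotated start in the RefSeq promoter table (build GRCm38.p6), 5′ to 3′ in the direction of the gene. Capitals mark CCAAT boxes (CCAAT, here always on the reverse strand) and, in Sesn1, a match to the p53 decamer, the repeated unit of a p53 site. The window of Sesn2 is chr4:132510457-132510706, minus strand. That of Ddit4 is chr10:59951771-59952020, minus strand. The one of Sesn1 belongs to the downstream of its 2 listed starts (chr10:41887189-41887438, plus strand), and the one of Sesn3 is chr9:14276051-14276300, plus strand.
Sesn2: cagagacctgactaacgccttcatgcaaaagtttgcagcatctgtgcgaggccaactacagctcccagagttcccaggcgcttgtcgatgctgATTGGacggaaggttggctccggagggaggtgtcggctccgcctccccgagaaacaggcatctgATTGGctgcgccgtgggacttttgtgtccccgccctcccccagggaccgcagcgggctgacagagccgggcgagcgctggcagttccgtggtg
Ddit4: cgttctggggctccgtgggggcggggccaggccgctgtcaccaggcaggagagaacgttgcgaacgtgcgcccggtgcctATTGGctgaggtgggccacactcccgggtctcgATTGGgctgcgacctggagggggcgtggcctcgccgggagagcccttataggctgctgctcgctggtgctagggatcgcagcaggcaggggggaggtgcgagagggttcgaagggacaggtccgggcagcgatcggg
Sesn1: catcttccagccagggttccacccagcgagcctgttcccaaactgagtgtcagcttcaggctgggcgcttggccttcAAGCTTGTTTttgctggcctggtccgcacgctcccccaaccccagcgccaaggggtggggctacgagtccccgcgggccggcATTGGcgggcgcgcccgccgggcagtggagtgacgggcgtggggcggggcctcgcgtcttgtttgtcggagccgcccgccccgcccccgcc
Sesn3: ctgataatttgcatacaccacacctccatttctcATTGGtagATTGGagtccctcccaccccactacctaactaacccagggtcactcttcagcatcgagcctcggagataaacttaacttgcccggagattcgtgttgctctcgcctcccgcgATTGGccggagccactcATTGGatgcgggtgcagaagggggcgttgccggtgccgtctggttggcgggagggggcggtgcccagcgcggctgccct

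Promoter windows of 300 bases, from 250 before to 50 after the start, were listed for 7 of the 8 genes and made 8 windows, 2 of them for Sesn1. The p53 decamer matched 1 of the 8, the downstream Sesn1 start, at -173 to -164 relative to it. Over all 32851 windows of the table, 8.36% held such a match. Neither the Sesn2 nor the Ddit4 window held one. A p53 full site, made of 2 decamers up to 13 bases apart, was in 0 of the 8 windows and in 0.0731% of all windows. The ATF4 motif TGATGNAA was in 0 of the 8 windows (3.97% of all), and the forkhead motif GTAAACA was in 1, the upstream Sesn1 window, past the start (3.65% of all). The CCAAT box, which the factor NF-Y is known to bind, was added after the sequences had been read, so its counts are description only. It was in all 5 windows of the sestrins and Ddit4 and in none of the 3 windows of Prkab1, Prkab2 and Tsc2, against 37.4% of all windows. Sesn2 and Ddit4 held 2 each and Sesn3 held 4, and a link between boxes and ratios was not tested. Both strands were searched for each motif, no match overlapped another, and a match here is only a match of letters. The full site and the ATF4 motif are rare over all windows, so 0 of 8 was likely for any genes. Absence of a match, the decamer in Sesn2 and Ddit4 included, says nothing on binding. Sites outside the windows or with mismatches were not searched. The 8 windows were rich in G and C, from 62.7% to 71.0%, where the median over all windows was 52.7%. The motif shares over all windows were not matched for this.

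Sesn2 is a leucine-binding sestrin and known as a target of p53 and of ATF4. It had 5628 reads in the untreated and 16760 in the Adriamycin library, or 141.5 and 413.3 CPM. The Adriamycin level was 2.92-fold higher, a log2 ratio of 1.55 (1.48 to 1.61). Of all measured genes, 89.8% had a lower ratio. The gene lies on chromosome 4 (132219343 to 132237812, GRCm39, minus strand, ENSMUSG00000028893), and its exons overlap those of no other listed gene.

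Sesn1, the sestrin long known as a p53 target under the name PA26, had 1707 and 2201 reads, or 42.9 and 54.3 CPM. Its log2 ratio was 0.34 (0.21 to 0.47), well short of 2-fold. It lies on chromosome 10 (41685931 to 41784420) and spans 98.5 kb, against 18.5 kb for Sesn2. Sesn3, known as a target of FOXO factors, had 1550 and 1561 reads, or 39.0 and 38.5 CPM. Its log2 ratio of -0.02 (-0.16 to 0.13) was not distinguishable from 0 by counting error, and its sign depended on the scaling. Sesn3 lies on chromosome 9 (14186363 to 14244397). Only Sesn2 among the 3 sestrins was therefore past 2-fold.

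The make-up of the sestrin pool differed between the libraries in a way that no scaling of library size can alter. Sesn2 held 63.3% of the 8885 sestrin reads of the untreated library (exact binomial interval 62.3% to 64.3%, on undivided counts) and 81.7% of the 20522 reads of the Adriamycin library (81.1% to 82.2%). Per kilobase of exon its share went from 75.3% to 88.0%. Sesn1 went from 19.9% to 10.1% and Sesn3 from 4.72% to 1.87% per kilobase. These smaller shares arose while Sesn1 and Sesn3 kept levels near the untreated ones. Summed per kilobase of exon, the 3 sestrins stood at 54.1 in the untreated and 135.1 in the Adriamycin library, in CPM per kilobase.

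**Figure D1:**
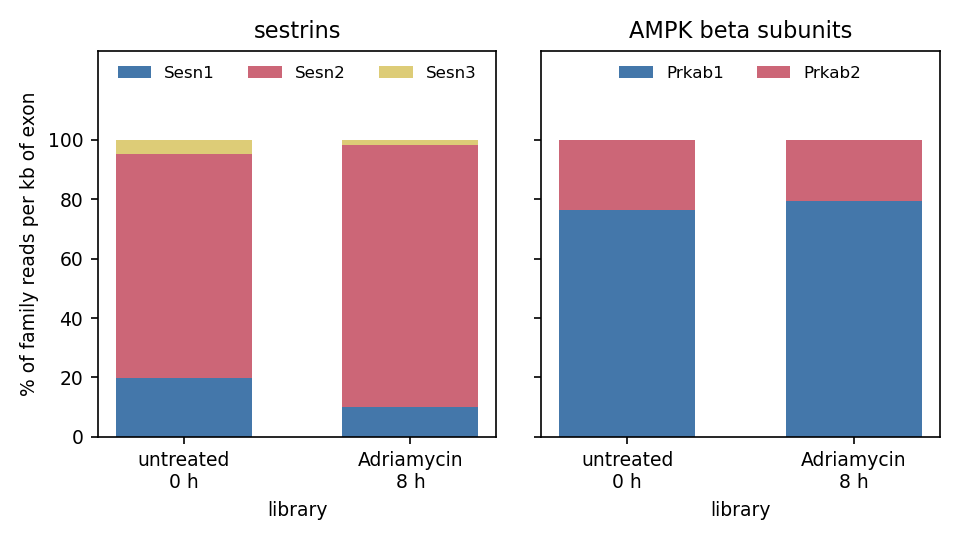
Bars show the percent of each family's reads per kilobase of exon in the untreated (0 h) and Adriamycin (8 h) library, with 1 library per bar and no error bar. Sesn2 takes 75.3% and 88.0% of the sestrin pool, while Prkab1 takes 76.4% and 79.5% of the AMPK beta pool.

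Ddit4, also called REDD1, releases the TSC complex from its inhibitor and is known to respond to p53, ATF4, HIF1 and glucocorticoids. It had 6960 and 20575 reads, or 175.0 and 507.4 CPM, so the Adriamycin level was 2.90-fold higher. The log2 ratio was 1.54 (1.48 to 1.59), and 89.7% of all measured genes had a lower one. Ddit4 is a compact gene of 2.17 kb on chromosome 10 (59785491 to 59787656, minus strand, ENSMUSG00000020108) with no exon overlap. Its ratio and that of Sesn2 differed by 0.01 (-0.07 to 0.09). Among 456 genes with a mean CPM at most 25% above or 20% below that of Sesn2, Ddit4 had the nearest log2 ratio and Ndc1, a nuclear pore gene, the next (1.67). Among the 336 such genes for Ddit4, the nearest were Sesn2 and Ptk7, a receptor-like gene of planar polarity (1.55). Likeness here rests on 2 libraries and on the size of 1 ratio.

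The AMPK beta subunits carry the glycogen-binding domain and hold the kinase complex together. Prkab1, which p53 is known to activate, had 1880 and 2043 reads, or 47.3 and 50.4 CPM. Its log2 ratio was 0.09 (-0.04 to 0.22), with limits that included 0, and it was negative with upper-quartile factors. Prkab2 had 967 and 877 reads, or 24.3 and 21.6 CPM, a log2 ratio of -0.17 (-0.36 to 0.02), whose limits also included 0. Both subunits thus stayed close to their untreated level. The difference between their log2 ratios was 0.26 (0.03 to 0.49), with Prkab1 above Prkab2. Prkab1 lies on chromosome 5 (116151645 to 116162567) and Prkab2 on chromosome 3 (97565509 to 97581128), which shares 9 bp of exon with the unread Gm17651.

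Tsc2 encodes tuberin, the GTPase-activating subunit of the TSC complex that turns Rheb off. It had 10744 and 13057 reads, or 270.1 and 322.0 CPM, the most reads of the 8 genes in the untreated library. Its log2 ratio was 0.25 (0.20 to 0.31). Tsc2 (chromosome 17, 24814790 to 24851604, minus strand) shares 693 bp, 7.20% of its exonic bases, with Pkd1 on the opposite strand. Pkd1 had 2681 and 6151 reads, a log2 ratio of 1.17. The counting used no strand, and reads lying on both genes could not be told apart, so the Tsc2 value is uncertain there.

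Deptor, an inhibitory partner that sits in both mTOR complexes, was the lowest of the 8 by ratio. It had 2033 and 1227 reads, or 51.1 and 30.3 CPM. Its log2 ratio was -0.76 (-0.90 to -0.61), 1.69-fold lower and short of the 2-fold rule, with 12.6% of all measured genes below it. Deptor is the longest of the 8, spanning 147.0 kb of chromosome 15 (54975713 to 55122667), and shares 303 bp of exon with Gm9920, which had 6 and 2 reads. The difference to Sesn2 was 2.30 on the log2 scale (2.15 to 2.46). Deptor and Sesn2, both known brakes, thus stood on opposite sides of their untreated levels.

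**Figure D2:**
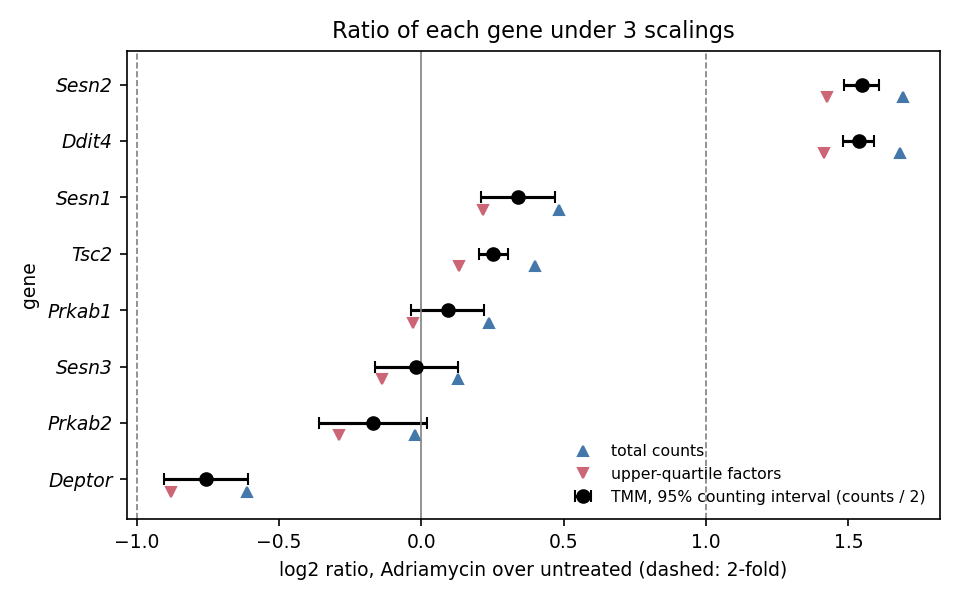
Each row is a gene and the axis is the log2 ratio of Adriamycin over untreated; black points are TMM-scaled ratios with 95% counting intervals on counts divided by 2, and triangles are 2 other scalings. Sesn2 (1.55) and Ddit4 (1.54) lie past the dashed 2-fold line under all 3 scalings and Deptor (-0.76) lies below 0 under all 3.

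Levels of different genes were compared per kilobase of exon, over all deposited exons of a gene. In the untreated library the order was Ddit4 (99.7 CPM per kilobase), Sesn2 (40.7), Tsc2 (28.1), Prkab1 (15.4), Sesn1 (10.8), Deptor (5.76), Prkab2 (4.77) and Sesn3 (2.55). In the Adriamycin library Ddit4 (289.1) and Sesn2 (118.9) again led, followed by Tsc2 (33.5), Prkab1 (16.4), Sesn1 (13.6), Prkab2 (4.24), Deptor (3.41) and Sesn3 (2.52). The only exchange in the order was between Deptor and Prkab2, and the exact Poisson intervals of neighbours, on undivided counts, did not overlap in either library. Ddit4 stood above 97.2% of all measured genes per kilobase in the untreated and above 99.6% in the Adriamycin library. Sesn2 stood above 90.2% and 98.2%, and Sesn3 above 34.8% and 31.5%. The long annotated exons of Sesn3, 15.3 kb in all, enter its value per kilobase in full.

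**Figure D3:**
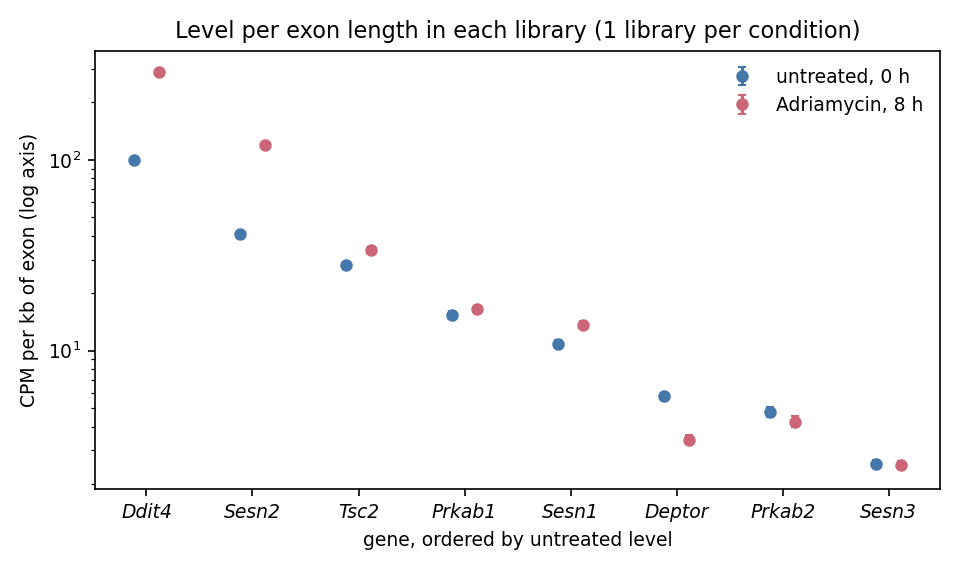
Points give the level of each gene in CPM per kilobase of exon (log axis) in the untreated and Adriamycin library, with exact 95% Poisson intervals on undivided counts that are mostly smaller than the points. Ddit4 moves from 99.7 to 289.1 and Sesn2 from 40.7 to 118.9, while Deptor moves from 5.76 to 3.41.

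The known partners of these brakes mostly stayed within 2-fold. Over 8 lists of the mTOR pathway, with 91 genes and none of the 8 brakes, 89 were measured. Of these 6 (6.74%) were at least 2-fold higher and 4 (4.49%) at least 2-fold lower, with a median log2 ratio of -0.07. Both shares were below those over all measured genes given above, which were not matched for level. Most of the pathway genes averaged more than 10 CPM, the 6 higher and 4 lower ones included. Once weaker genes were left out at that level, 10.9% of those kept in the whole series were higher and 6.13% lower. These values are nearer to the pathway shares. With upper-quartile factors, however, 13.5% of the pathway genes were lower, against 9.39% of all measured genes. Scaling by total counts or upper quartiles shifted all ratios by 0.14 or -0.12, so medians and ratios nearer to 0 than that have no settled sign. With upper-quartile factors the ratios of Prkag1 (0.94) and Foxo3 (0.90), both described here as higher, were short of 2-fold, and with total counts that of Larp1 (-0.93) was.

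Of 10 subunits and assembly factors of the mTOR complexes, 0 were past 2-fold, with a median of 0.09. The kinase gene Mtor had 9773 and 7879 reads (log2 ratio -0.34) and Rptor, encoding raptor, 7033 and 9438 (0.40). Of 4 genes of the TSC complex and Rheb, 0 were past 2-fold. Tsc1, encoding the hamartin that stabilises tuberin, had a log2 ratio of 0.16 on 2584 and 2942 reads. The GTPase gene Rheb had -0.47 on 3220 and 2363 reads. Of 15 genes of GATOR, KICSTOR and amino acid sensing, which include those of GATOR2, 0 were past 2-fold and the median was 0.04.

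Of 13 genes of the Rag GTPases, Ragulator and folliculin, 1 was higher and 2 were lower. Flcn, whose product folliculin activates RagC and RagD, was 3.03-fold higher with 2385 and 7364 reads. The Rag GTPase genes Rragd (1053 and 423 reads) and Rragb (607 and 271 reads) were 2.54-fold and 2.28-fold lower. Among 10 measured genes of the other AMPK subunits and upstream kinases, 1 was higher and 0 were lower. That was the gamma subunit gene Prkag1, 2.09-fold higher with 647 and 1376 reads, of whose exons 43.7% overlap B130046B21Rik on the other strand (19 and 39 reads). The catalytic subunits differed in sign, with Prkaa1 at -0.74 (1873 and 1140 reads) and Prkaa2 at 0.69 (1451 and 2381 reads). Stk11, encoding the activating kinase LKB1, had a log2 ratio of 0.21, and 5.07% of its exonic bases lie on those of Cbarp on the other strand (1284 and 3606 reads).

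Of 15 genes of insulin, PI3K and AKT input, 1 was higher, Pik3r3, a regulatory subunit gene of PI3K (2.45-fold, 250 and 626 reads), and 0 were lower. Of its exonic bases 24.3% are shared on the same strand with Gm49337, which had 0 reads in both libraries, so its count is uncertain. The median of that list was -0.34. Another 3 genes are brakes on IGF and AKT signalling that p53 is known to act on, or relatives of such a gene. Of these 2 were higher, where 17.0% of all measured genes were. Igfbp3 (1058 and 1841 reads) was within 2-fold, with a log2 ratio of 0.77. Ddit4l, the relative of Ddit4 also called REDD2, went from 765 to 5379 reads, 6.89-fold higher. Phlda3, which competes with AKT for membrane lipid, was 4.30-fold higher with 1525 and 6694 reads.

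Among 19 measured effectors downstream of mTORC1, 1 was higher and 2 were lower, with a median of -0.30. Lpin1, a phosphatidate phosphatase gene, was 3.96-fold higher with 2173 and 8769 reads. Tfeb, a lysosomal transcription factor held in the cytoplasm by mTORC1, was 3.23-fold lower with 2723 and 859 reads. Larp1, which binds mRNAs of the translation machinery, was 2.11-fold lower with 23560 and 11381 reads.

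**Figure D4:**
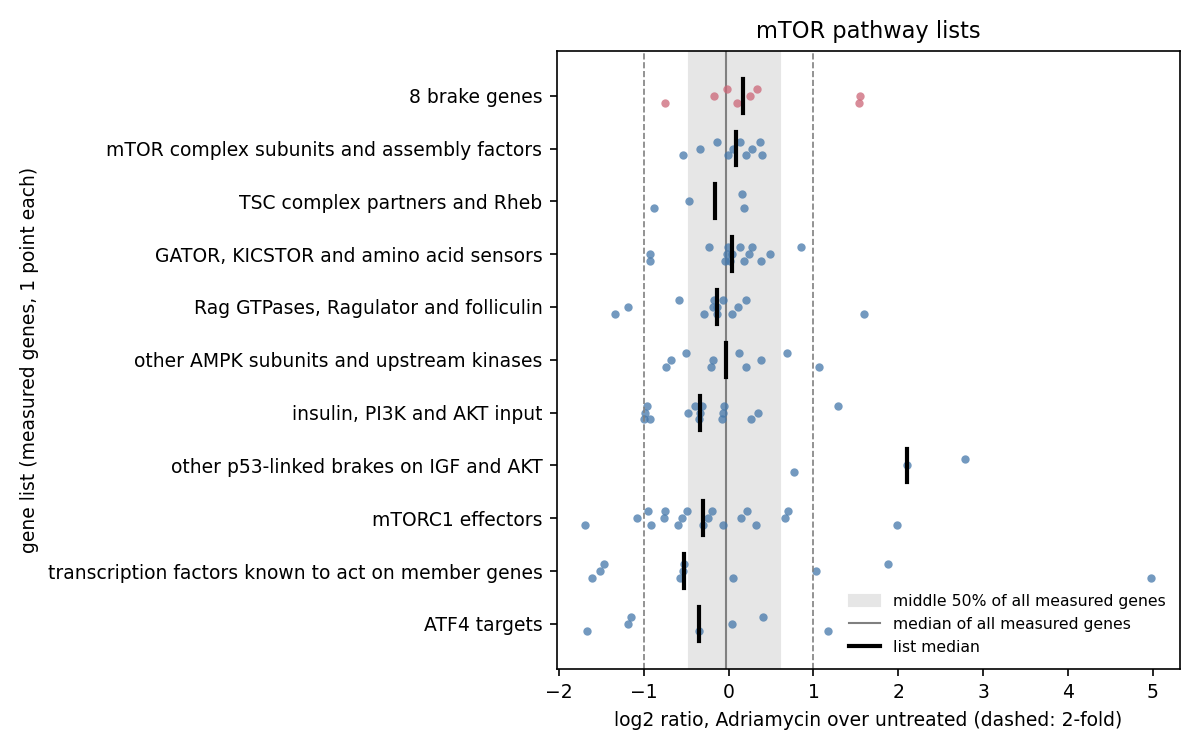
Each point is 1 measured gene, placed by its log2 ratio of Adriamycin over untreated, in the row of its list; black bars are list medians, the grey band holds the middle 50% of all measured genes and dashed lines mark 2-fold. The 8 brake genes have a median of 0.17 with Sesn2 and Ddit4 apart from the rest, and the 3 p53-linked brakes on IGF and AKT have the highest median of the lists drawn.

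Of 10 measured transcription factors known to act on the 8 genes, 3 were higher and 3 lower. Over all measured genes 17.0% were higher and 6.95% lower. The p53 relative Trp73 was 31.7-fold higher with 342 and 11074 reads, with 5.06% of its exonic bases shared with Trp73os (0 and 42 reads), while Trp53 itself had a log2 ratio of -0.57. The glucocorticoid receptor gene Nr3c1 was 3.66-fold higher (817 and 3054 reads). Foxo3 was 2.04-fold higher (6868 and 14251 reads), Foxo1 had a log2 ratio of 0.05, and Foxo4 was 2.78-fold lower (4388 and 1609 reads). Atf4, which is known to raise Sesn2 and Ddit4 in the integrated stress response, was 2.86-fold lower with 8109 and 2895 reads. The stress gene Nupr1 was 3.07-fold lower on 293 and 97 reads. ATF4 is controlled largely at translation, which read counts do not show. Of 7 ATF4 targets, 3 were lower and 1 was higher, beside 6.95% and 17.0% of all measured genes. The lower ones were Chac1 (3.19-fold), Slc7a11 (2.27-fold) and Asns (2.22-fold), genes of glutathione breakdown, cystine uptake and asparagine synthesis. The higher one was Atf3, 2.25-fold, on 135 and 310 reads. The other 3 were within 2-fold: Trib3 (log2 ratio 0.41), Psat1 (0.04) and Vldlr (-0.35). Whether ATF4 or these factors had a part in the Sesn2 and Ddit4 levels was not tested. The p53 targets Cdkn1a and Mdm2, looked at as a check of the drug response, were 3.10-fold and 7.16-fold higher. Cdkn1a shares 7.68% of its exonic bases with AC167363.2 on the other strand (19 and 43 reads).

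The label of embryonic stem cells was checked on 9 markers, all of them measured. Their summed level was 6677 CPM untreated and 3795 CPM after Adriamycin, and 5 were at least 2-fold lower. Of 9 fibroblast markers, listed for feeder cells, Col3a1, Dcn, Lum, Postn and S100a4 were at 0 reads in both libraries, and the sum was 35.0 and 68.5 CPM. Pdgfrb (636 and 971 reads), Thy1 (484 and 448) and Col1a2 (59 and 62) were read in both libraries and lay within 2-fold. Col1a1 (214 and 1295 reads) was the 1 higher member. Summed markers of endoderm stood at 52.2 and 50.2 CPM, of mesoderm at 20.1 and 11.7, of neuroectoderm at 21.1 and 47.7 and of trophoblast at 1.99 and 10.6. Single markers moved both ways: Neurod1 (208 and 1455 reads), Mesp1 (13 and 206) and Krt7 (34 and 346) were at least 2-fold higher, and Eomes (609 and 119) and Pax6 (151 and 25) at least 2-fold lower. In bulk RNA, fewer cells of a type and less RNA per cell cannot be told apart, and the part of the lower stem cell markers and of these other markers in the ratios above was not tested.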

How the data were processed

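The values are raw read counts per gene in 2 libraries. Per the file headers, the authors counted reads with featureCounts 2.0.3 on exons of annotation release 105 of GRCm39, with paired-end reads and both ends aligned. The headers show no option for strand, multi-mapping reads, reads on several genes or fragments, so mates may be counted separately. Per the submitters' processing notes, the tools named are HISAT2 2.0.4, Trim Galore 0.3.4, FastQC, DESeq2 1.16.1 and featureCounts 1.6.0, with builds mm9 and mm10; the build and counter version differ from the headers. Symbols came from GENCODE M21 names, which matched 52081 of 55414 identifiers. RefSeq promoters are on GRCm38.p6, another build, and other coordinates are from the deposited tables.

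Library sizes were scaled with TMM factors of 0.951 and 1.05 (edgeR 4.0.16, R 4.3.3). Ratios used a pseudocount of 0.5 read, and their intervals are conditional binomial (Python 3.11.15, scipy 1.17.1). Intervals on differences between log2 ratios are normal approximations from the counts divided by 2, without the pseudocount. PCR copies are not independent molecules, so intervals are too narrow. A gene was called at 2-fold. The 8 genes and all lists were chosen with earlier results of these data known. Named genes are the 8, Cdkn1a, Mdm2, 12 pathway genes fixed by name, up to 4 called genes per list and direction, the 2 nearest in ratio, and those sharing exons; 1 listed gene is not reported here. Alternatives were other scalings (total counts, upper quartile, DESeq2 1.42.0), pseudocounts, filters and a 1.5-fold rule.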

Additional observations from a re-analysis of the deposited data

How the results depend on the processing

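Sesn2 and Ddit4 were the 2 genes of the 8 past 2-fold higher under every scaling, pseudocount and filter tried, and also by the lower interval limit on counts divided by 2. With the 1.5-fold rule 1 of the 8, Deptor, was lower, where 18.9% of all measured genes were. Total counts shifted the median of all measured genes by 0.14 and upper-quartile factors by -0.12, and the log2 ratios moved with them. With total counts they were 0.48 for Sesn1, 1.69 for Sesn2, 0.13 for Sesn3, 1.68 for Ddit4, 0.24 for Prkab1, -0.024 for Prkab2, 0.40 for Tsc2 and -0.61 for Deptor. With upper-quartile factors they were 0.22 for Sesn1, 1.42 for Sesn2, -0.14 for Sesn3, 1.41 for Ddit4, -0.03 for Prkab1, -0.29 for Prkab2, 0.13 for Tsc2 and -0.88 for Deptor. Sesn3 and Prkab1 changed sign among these settings. The higher share of all called genes was 71.0% in the main scaling, 80.2% for total counts and 61.6% for upper-quartile factors.

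With upper-quartile factors the lower genes numbered 2 for GATOR and amino acid sensors, 4 for insulin, PI3K and AKT input, 4 for mTORC1 effectors and 12 over all 8 lists (13.5%, against 9.39% of all measured genes), and the higher AMPK partners were 0. With total counts 1 mTORC1 effector was lower. With no filter on low counts the higher AMPK partners and the higher mTORC1 effectors were 2 each, because genes of few reads entered. With a mean of at least 10 CPM the higher ATF4 targets were 0, because Atf3 fell under it. Ordered by CPM in place of the level per length, 0 genes kept their rank in the untreated and 4 in the Adriamycin library. No paired analysis was possible because each condition has 1 library, and leaving out a replicate was not possible either.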

Other observations

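The genes next to the 8 on their chromosomes were read as well, a choice made after the values of the 8 were seen. For each gene the nearest measured gene lying wholly outside it was taken on either side, leaving out predicted names. Genes that overlap one of the 8, such as Pkd1 at Tsc2, were therefore passed over. Sesn2 lies between Med18 (log2 ratio 0.11) and Atpif1 (-0.16), and Ddit4 between Dnajb12 (0.04) and Anapc16 (0.40), so none of these 4 neighbours was past 2-fold. Cep57l1, whose exons start 0.064 kb from Sesn1, had 0.03. Nthl1, a base excision repair gene 0.050 kb from Tsc2, had 1204 and 2416 reads (0.98), close to 2-fold, where Tsc2 had 0.25. Of the 16 neighbours, 3 were at least 2-fold higher, where 17.0% of all measured genes were. Those were Tmem233 beside Prkab1 (14 and 325 reads), Endod1 beside Sesn3 (222 and 618 reads) and Armc2 beside Sesn1 (53 and 126 reads).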
